A study of Mus musculus with 22 samples.

Results

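The 18 genes described here were lower in mouse embryonic stem cells (ESCs) that lack Ezh2, in each of 2 culture media. Ezh2 is the catalytic subunit of Polycomb repressive complex PRC2. The genes were chosen by their measured levels, so the fall in the knockout is how they were found and is given as a description, without a test. Levels are in CPM, a gene's count divided by the library total and multiplied by 1000000. Of 55367 gene symbols in the table, 10046 reached a mean of at least 5 CPM in both wild-type groups. In the knockout, 322 of these stood at 40% or less of wild type in serum and LIF, and 66 did so once 2i was added. Both limits were met by 24 genes, which is 7.45% of the first set and 36.4% of the second, and 20 remained after Ezh2, Mest and 2 predicted genes were left out by name. The 18 of these described here are Actn3, Apobec1, Calml4, Dhdh, Fkbp10, Gli1, Gpt2, Ina, Napsa, Nlrp4a, Prx, Sulf1, Tex14, Trim63, Ttn, Ttpa, Ubap1l and Xkr5.

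RNA-seq was available for 22 mouse libraries in 10 groups. Wild-type E14 ESCs grown with LIF (serum and LIF, SL) formed the group E14_ESC, with 3 libraries. A further wild-type E14 group in that medium, titled TG2A.NG.PB.ESC and called TG2A_ESC, had 2 libraries, and the same cells with LIF and 2i formed TG2A_S2iL, with 2. 2i is a pair of inhibitors, of MEK and of GSK3, that holds ESCs in a naive state. The knockout is a single clone of E14 cells, Ezh2KO-10, whose genotype the labels spell Eeh2-null. It was grown in SL (KO10_SL, 3 libraries) and with 2i (KO10_S2iL, 2 libraries), and in SL after Ezh2 was put back (KO10_SL_rescued, labelled Eeh2-rescued, 2 libraries). Primitive endoderm (PrE) stem cells, the cultured counterpart of the yolk sac precursor, came from a C57 line (C57_PrESC) and from wild-type E14 cells converted with EPZ-6438, an EZH2 inhibitor (EPZ_iPrE1 and EPZ_iPrE2), with 2 libraries each. C57_ESC, with 2 libraries, is the ESC counterpart of C57_PrESC. The knockout was thus set against E14_ESC in SL and against TG2A_S2iL with 2i, which are different wild-type sets. Nothing in the labels says whether libraries of a group came from separate cultures, so a p-value measures only the spread between these libraries.

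PRC2 places methyl groups on lysine 27 of histone H3, and this mark is best known for keeping developmental genes silent. Genes that fall when Ezh2 is lost are therefore not the usual picture of a Polycomb target, and the chromatin profiles planned for the series were not analysed here. PrE arises beside the pluripotent epiblast in the blastocyst, and ESC cultures can give rise to PrE-like cells. The 18 genes belong to no single pathway. They encode muscle and cytoskeletal proteins (Ttn, Actn3, Trim63, Ina, Prx), signalling proteins (Gli1, Sulf1), metabolic proteins (Gpt2, Dhdh, Ttpa), germ cell and nucleic acid proteins (Tex14, Nlrp4a, Apobec1), enzymes of the secretory pathway (Fkbp10, Napsa) and the less studied Calml4, Ubap1l and Xkr5. None of the 346 genes on 24 lists of cell type markers and pathways drawn up for these cells was among them.

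RefSeq promoters (GRCm38.p6, from 250 bases before to 50 bases after the gene start) were found for 10 of the 18 genes. A few of them are printed to show how far the genes differ in CpG content: the richest (Ina), the poorest (Prx), and Tex14 and Ttn, both higher in rescued cells than in TG2A_ESC. CpG dinucleotides are in capitals. The windows are chr19:47014431-47014730 on the plus strand for Ina, chr11:87404815-87405114 on the plus strand for Tex14, chr2:76982498-76982797 on the minus strand for Ttn and chr7:27499074-27499373 on the plus strand for Prx.
Ina: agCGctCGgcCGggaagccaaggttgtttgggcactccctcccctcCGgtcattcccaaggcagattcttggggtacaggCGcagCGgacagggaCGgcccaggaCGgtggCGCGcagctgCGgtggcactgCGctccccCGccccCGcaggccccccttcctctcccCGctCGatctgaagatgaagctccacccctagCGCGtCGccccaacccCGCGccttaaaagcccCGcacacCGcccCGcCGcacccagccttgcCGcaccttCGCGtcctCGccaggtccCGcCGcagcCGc
Tex14: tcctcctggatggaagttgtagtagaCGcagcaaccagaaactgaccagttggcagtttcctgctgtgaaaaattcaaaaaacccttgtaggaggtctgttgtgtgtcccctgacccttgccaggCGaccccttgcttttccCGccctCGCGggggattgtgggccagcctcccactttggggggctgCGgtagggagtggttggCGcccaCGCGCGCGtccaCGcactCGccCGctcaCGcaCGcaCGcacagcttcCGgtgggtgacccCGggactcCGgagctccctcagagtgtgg
Ttn: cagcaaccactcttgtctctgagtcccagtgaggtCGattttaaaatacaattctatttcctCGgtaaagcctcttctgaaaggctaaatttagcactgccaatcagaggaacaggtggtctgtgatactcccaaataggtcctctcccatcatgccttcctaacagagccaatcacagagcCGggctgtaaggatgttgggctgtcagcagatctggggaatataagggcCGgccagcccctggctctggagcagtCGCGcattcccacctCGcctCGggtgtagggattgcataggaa
Prx: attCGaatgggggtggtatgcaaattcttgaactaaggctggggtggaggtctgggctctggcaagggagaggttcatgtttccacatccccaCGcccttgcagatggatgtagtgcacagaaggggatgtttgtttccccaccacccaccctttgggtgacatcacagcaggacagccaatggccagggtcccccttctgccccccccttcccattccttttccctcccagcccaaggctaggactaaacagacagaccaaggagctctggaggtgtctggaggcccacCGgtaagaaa
Ina had 32 CpGs in 300 bases, Tex14 had 20, Ttn 8 and Prx 3. Among the other promoters found, Gpt2 had 19, Apobec1 9, Calml4 8, Trim63 7, Ubap1l 6 and Nlrp4a 5. The median of the 10 was 8, against 22 in the 7996 matched genes with at least 5 CPM in both wild-type groups and 7 in all 27025 promoters of the table. The ratio of observed to expected CpGs, which corrects for C and G content, had a median of 0.417 in the 10, 0.800 in the first comparison set and 0.389 in the second. The medians describe these 10 genes only.

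Short motifs were searched on both strands of the same windows. The octamer ATGCAAAT, bound by POU factors, occurred in 1 promoter (Prx) and in 1.28% of the 7996. The KLF motif CCACACCC occurred in 1 (Apobec1) and in 3.74%. TATAAA occurred in 2 (Apobec1 and Trim63) and in 6.02%. The GLI motif GACCACCCA, the ESRRB motif TCAAGGTCA and the E-box CACGTG occurred in none of the 10, and in 0.213%, 0.213% and 11.3% of the 7996. No motif was common to the 10 windows.

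Depth was 13.6 to 26.3 M estimated counts per library. Ezh2 itself had 2, 1 and 1 counts in the KO10_SL libraries and 6 and 0 in KO10_S2iL, against 179 to 188 CPM in E14_ESC and 502 and 534 CPM in the rescued libraries. All 18 genes passed the filter on low counts. Beside the low knockout levels described below, the 18 genes of a PrE factor list summed to 462 to 526 CPM in E14_ESC, 2833 to 3245 in KO10_SL and 533 and 551 in the rescued libraries. With 2i the sum was 268 and 276 CPM in wild type and 778 and 791 in the knockout, while in PrE stem cells it was 17550 to 23904. Genes of the 2-cell-like state summed to 36.7 to 68.4 CPM in E14_ESC and 347 to 396 in KO10_SL, and under 2i to 43.2 and 45.9 in wild type and 509 and 516 in the knockout. General pluripotency genes summed to 4941 to 5478 CPM in E14_ESC and 6927 to 7107 in KO10_SL. Dppa5a made up much of that sum, with means of 1156 and 2581 CPM. The sum without Dppa5a was still higher in KO10_SL, while single genes of the list went both ways. Sox2 stood at 67.6%, Zscan10 at 74.1%, Lin28a at 75.8% and Gdf3 at 122% of E14_ESC. The part of these other cell states in the low levels was not tested. In bulk RNA, fewer cells expressing a gene and less RNA per cell cannot be told apart.

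In the knockout in SL, the 18 genes stood at 8.64% (Calml4) to 38.0% (Fkbp10) of E14_ESC, with a median of 29.3%. Under 2i they stood at 4.59% (Napsa) to 39.1% (Nlrp4a) of TG2A_S2iL, with a median of 24.3%. Across the 10046 genes the medians were 96.0% and 102%. For each of the 18 genes, every KO10_SL library lay below every E14_ESC library, and every KO10_S2iL library below every TG2A_S2iL library. This held for 30.9% of all 17547 tested genes in SL and for 26.8% under 2i, and it follows largely from the choice of genes. Against TG2A_ESC, the other wild-type SL group, 16 of 18 had every KO10_SL library below every wild-type library, where 22.4% of tested genes did. The KO10_SL values are those that chose the genes, so this count too is a description. The exceptions were Calml4 and Nlrp4a, each of which had 1 low TG2A_ESC library. The genes just inside the limit in SL were Fkbp10 at 38.0%, Gpt2 at 36.9% and Actn3 at 36.9%, and the first outside was Fgf17 at 41.0%. Under 2i, Nlrp4a at 39.1% and Ttpa at 35.9% were just inside, and Fubp1 at 40.5% and Usp11 at 41.9% just outside. For the minimum level, Ina at 5.40 and Trim63 at 6.87 CPM were inside, and Dnajc22 at 4.73 CPM just outside.

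**Figure D1:**
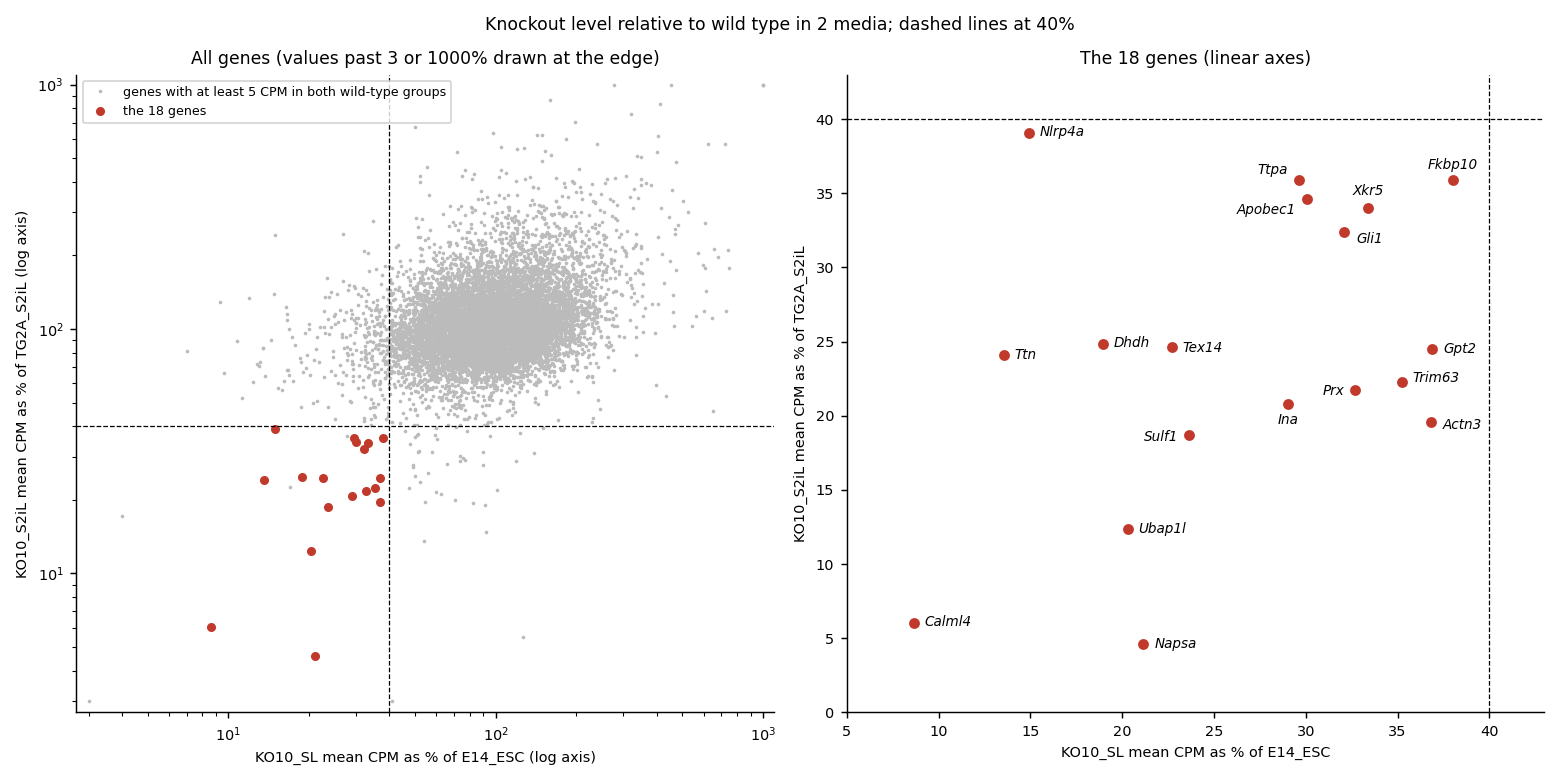
Mean level in the knockout as a percent of wild type, in SL (x axis) and with 2i (y axis); grey points are other genes with at least 5 CPM in both wild-type groups and red points the 18 genes, which lie inside the dashed lines at 40% by choice. The grey points drawn inside both lines are Ezh2, Mest and the 2 predicted genes; Calml4 and Napsa lie farthest from wild type under 2i, at 6.04% and 4.59%.

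Ttn, which encodes the giant sarcomere protein titin, was read at 57.1, 48.2 and 28.5 CPM in E14_ESC and at 6.17, 5.52 and 6.45 CPM in KO10_SL. With Ezh2 put back it was 55.8 and 77.9 CPM, so the rescued libraries overlapped those of E14_ESC and stood 11.1-fold above the knockout mean. Under 2i it was 57.3 and 55.7 CPM in wild type and 14 and 13.2 CPM in the knockout. Actn3, the alpha-actinin of fast muscle fibres, was 47.1, 47.2 and 36.8 CPM in E14_ESC, 12.4, 16.1 and 19.8 CPM in KO10_SL, and 54.1 and 55.0 CPM in the rescued cells. Its wild-type level was lower under 2i, at 10.7 and 10.5 CPM, and the knockout there was 2.16 and 1.98 CPM. The knockout was low in both media, as the rule required, and wild-type levels were 4.83-fold apart between TG2A_ESC and TG2A_S2iL. Trim63, a muscle ubiquitin ligase, was 6.36 to 7.23 CPM in E14_ESC, 1.97 to 2.85 CPM in KO10_SL and 5.51 and 4.03 CPM after rescue.

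Of 26 sarcomere genes, a list drawn up after the values were seen, only Ttn, Actn3 and Trim63 met the rule. Some others could not, since the rule needs at least 5 CPM in both wild-type groups and only 22 passed the filter on low counts. Among all 10046 genes with that minimum level, 24 met both limits before any was left out by name. Neb, the thin filament protein nebulin, was 15.5 CPM in E14_ESC and 2.25 CPM in KO10_SL, which is 14.5%, but stood at 90.4% of wild type under 2i. Actn2, the close relative of Actn3, was at 117% of wild type in SL and 171% under 2i. In the tests given below, 2 of 22 tested sarcomere genes (Ttn and Neb) were higher in the rescued cells than in TG2A_ESC and 0 lower. In PrE stem cells 14 fell and 3 rose in EPZ_iPrE1, 16 fell and 2 rose in EPZ_iPrE2, and 13 fell and 2 rose in C57_PrESC. The falls include Ttn, Actn3 and Trim63 each time. Among all tested genes 32.2%, 33.4% and 33.4% fell and 27.9%, 28.8% and 27.3% rose in the same comparisons.

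Ina, a neuronal intermediate filament protein, was 26.9, 26.2 and 21.9 CPM in E14_ESC and 7.52, 7.13 and 7.12 CPM in KO10_SL. The rescued libraries, at 31.3 and 33.6 CPM, were all above E14_ESC. Wild-type cells had less Ina under 2i, at 5.27 and 5.53 CPM, and the knockout had 1.25 and 0.990 CPM. Ina was thus low in 2i, low again without Ezh2, and lowest where both applied. Prx, a protein of the myelinating Schwann cell, was 36.3, 36.6 and 48.9 CPM in E14_ESC, 12.6 to 13.9 CPM in KO10_SL, and only 27.2 and 31.1 CPM in the rescued cells, below every E14_ESC library. Under 2i it was 54.7 and 51.4 CPM in wild type and 11.3 and 11.8 CPM in the knockout.

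Gli1, the transcription factor and target gene that reads out Hedgehog signalling, was 103, 114 and 84.1 CPM in E14_ESC, 26.5, 35.2 and 34.8 CPM in KO10_SL, and 104 and 119 CPM in the rescued cells. Under 2i the wild type had 42.5 and 44.1 CPM and the knockout 13.6 and 14.4 CPM, so the knockout kept 32.1% of wild type in SL and 32.4% with 2i. The other genes of the pathway, on a list of 15 drawn up after the values were seen, were less even across media. Ptch1, the Hedgehog receptor and itself a target, had a mean of 263 CPM in E14_ESC, 32.6 CPM in KO10_SL and 301 CPM in the rescued cells, but 95.5 and 57.8 CPM in wild type and knockout under 2i, which is 60.5%. Its wild-type level depended on the set of cells, since TG2A_ESC had 75.7 CPM. Gli2 was at 49.4% of wild type in SL and 63.3% under 2i. Smo, the transducer, and Sufu, the inhibitor of GLI proteins, were at 93.8% and 97.7% in SL and at 99.9% and 142% under 2i. The ligands Shh, Ihh and Dhh had means under 1 CPM in E14_ESC.

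Sulf1, an extracellular enzyme that removes 6-O-sulfate from heparan sulfate, was 65.1, 63.8 and 63.6 CPM in E14_ESC. It was 17.5, 13.7 and 14.3 CPM in KO10_SL and 64.7 and 71.5 CPM in the rescued cells. With 2i it was 39.0 and 36.5 CPM in wild type and 6.43 and 7.69 CPM in the knockout. Sulf2, which has the same activity, was at 87.7% of wild type in SL and 135% under 2i.

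Gpt2, the mitochondrial alanine aminotransferase, was 82.5, 78.6 and 85.9 CPM in E14_ESC, 28.9, 31.9 and 30.3 CPM in KO10_SL, and 128 and 121 CPM in the rescued cells, above every E14_ESC library. Wild-type 2i cells had 144 and 146 CPM and knockout 2i cells 35.2 and 35.9 CPM. Dhdh, a dihydrodiol dehydrogenase, was 9.52 to 12.1 CPM in E14_ESC, 1.84 to 2.45 CPM in KO10_SL, and 8.22 and 10.8 CPM after rescue. Ttpa, the vitamin E transfer protein, was 7.91 to 10.3 CPM, 2.49 to 2.88 CPM, and 10.7 and 8.81 CPM in the same groups. Both returned into the range of the E14_ESC libraries.

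Tex14, needed for the intercellular bridges of germ cells, was 43.2, 45.0 and 36.3 CPM in E14_ESC, 6.33, 10.5 and 11.4 CPM in KO10_SL, and 61.9 and 56.5 CPM in the rescued cells. The share kept was similar under 2i, with 29.8 and 32.5 CPM in wild type and 8.30 and 7.05 CPM in the knockout. Nlrp4a, of an NLR family expressed in oocytes, was 10.1, 7.96 and 7.69 CPM in E14_ESC, 1.01 to 1.52 CPM in KO10_SL and 7.64 and 6.02 CPM in the rescued cells. Its wild-type level was uneven, at 3.40 and 0.742 CPM in TG2A_ESC. The related Nlrp4f stood at 143% of wild type in the SL knockout and 118% under 2i. Apobec1, a cytidine deaminase that edits RNA, was 12.3 to 14.6 CPM in E14_ESC, 3.88 to 4.28 CPM in KO10_SL, and 11.4 and 8.92 CPM after rescue.

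Fkbp10, a chaperone of collagen in the endoplasmic reticulum, was 18.4, 18.0 and 24.4 CPM in E14_ESC, 7.25 to 8.20 CPM in KO10_SL, and 19.8 and 21.5 CPM in the rescued cells. Napsa, an aspartic protease of lung and kidney, had the lowest share of wild type under 2i, with 0.284 and 0.350 CPM against 6.65 and 7.16 CPM. In SL it was 6.86 to 8.33 CPM in E14_ESC, 1.40 to 1.81 CPM in KO10_SL and 7.14 and 6.56 CPM after rescue. Calml4, a calmodulin-like protein, was 6.49, 8.70 and 9.47 CPM in E14_ESC and 0.206, 1.18 and 0.745 CPM in KO10_SL, and in 2i it was 11.3 and 10.7 CPM against 0.455 and 0.874 CPM. Its rescued libraries, at 5.40 and 5.70 CPM, remained below E14_ESC. Ubap1l, which resembles an ESCRT-I subunit, was 6.66 to 7.28 CPM in E14_ESC, 1.23 to 1.53 CPM in KO10_SL and 14.6 and 11.4 CPM in the rescued cells. Xkr5, of the XK family of membrane proteins, was 10.2 to 12.4 CPM, 2.71 to 4.89 CPM, and 8.66 and 10.9 CPM in those groups.

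**Figure D2:**
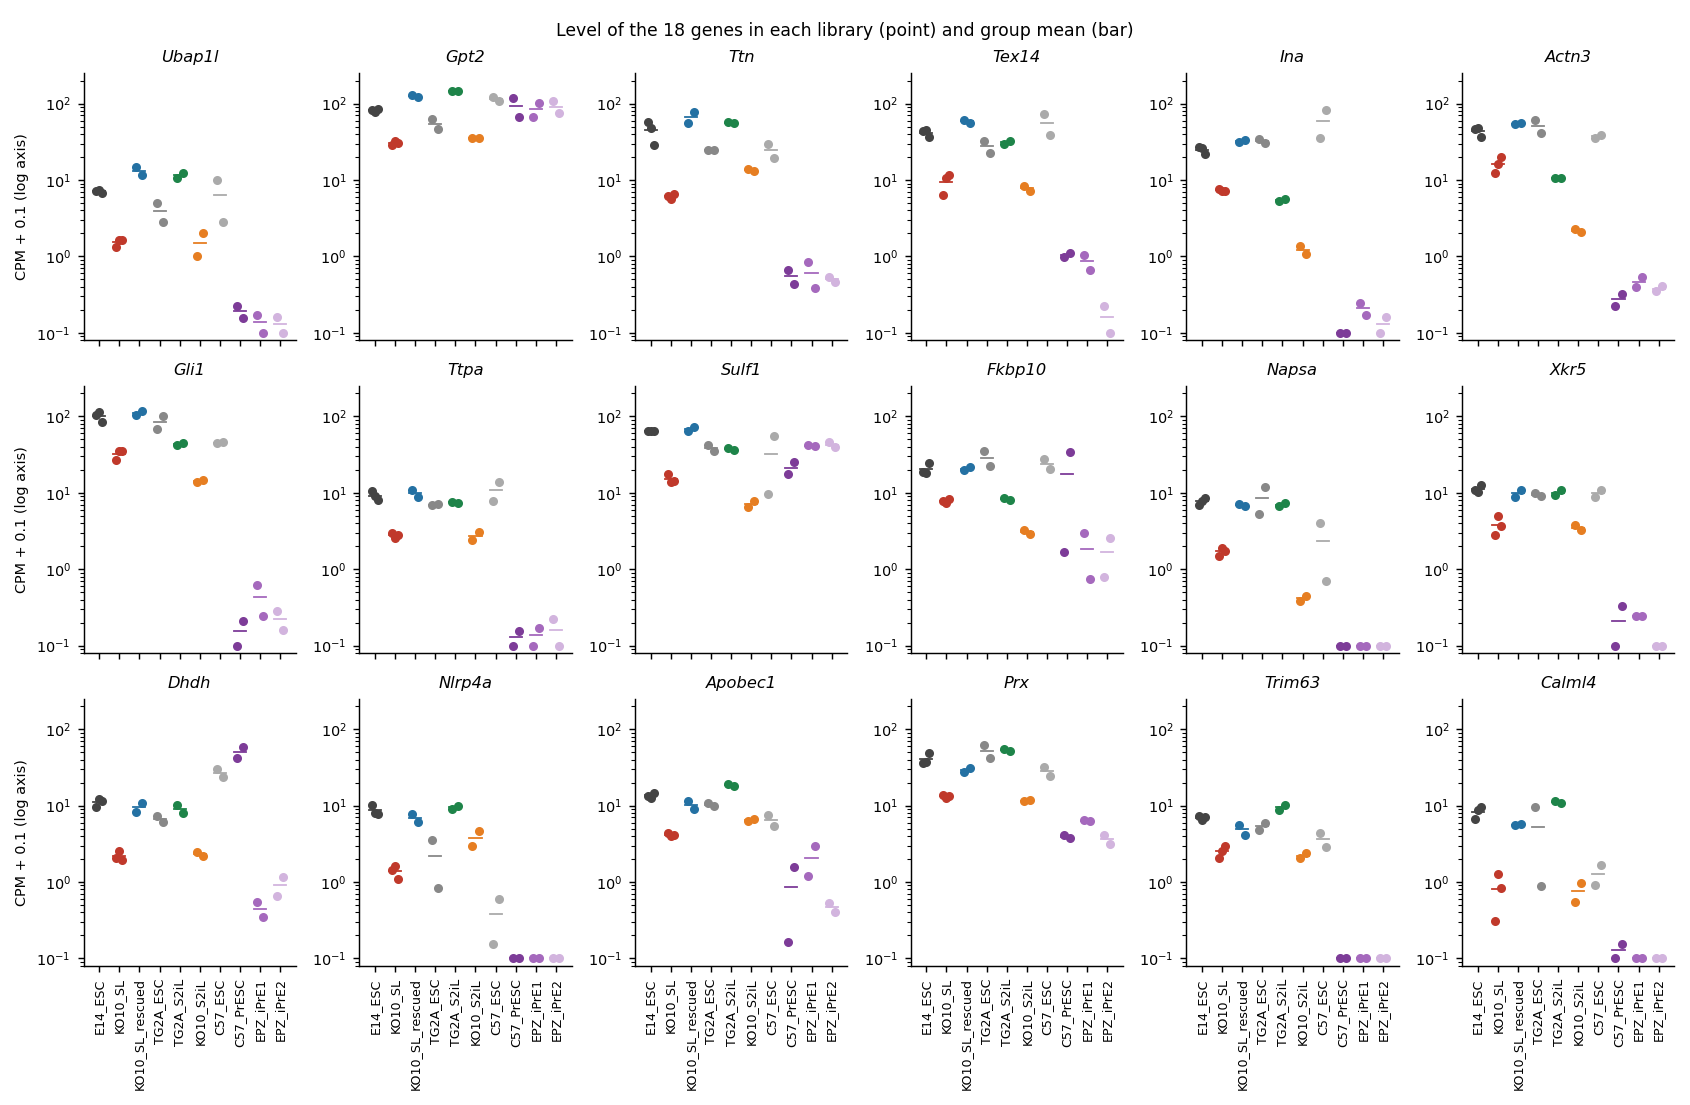
CPM of each gene in every library (points, on a log axis after adding 0.1, so that a library at 0 is drawn at the lowest level) with the group mean as a bar, for the 10 groups. In every panel the knockout libraries in SL (red) lie below E14_ESC, and those with 2i (orange) lie below TG2A_S2iL. Group means of the PrE stem cells (purple, right) are the lowest in every panel but those of Gpt2, Sulf1, Dhdh and Fkbp10.

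With Ezh2 put back, the 18 genes stood above their knockout level. The rescued mean was 67.5% (Calml4) to 185% (Ubap1l) of E14_ESC, with a median of 104%. It exceeded 80% of E14_ESC for 13 genes, lay between 40 and 80% for 5 (Apobec1, Calml4, Nlrp4a, Prx and Trim63), and was at or under 40% for 0. Set against TG2A_ESC instead, 16 genes exceeded 80% and only Fkbp10 and Prx did not. For each of the 18 genes both rescued libraries lay above all 3 KO10_SL libraries, where 32.3% of all tested genes did so. Since the genes were chosen for a low level in those KO10_SL libraries, a closer comparison is the 271 genes that met the limit in SL but not under 2i, with predicted genes (symbols starting Gm) left out here too. Of these 98.5% had both rescued libraries above the knockout, 73.4% exceeded 80% of E14_ESC, and the median was 95.1%. Of the 18 genes low in both media, 13 exceeded that 80%, and no test of the difference was made.

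The extent of recovery differed among the 18 genes. For 5 of them (Actn3, Gpt2, Ina, Tex14 and Ubap1l) both rescued libraries were above all E14_ESC libraries, as for 14.8% of tested genes. For 5 (Apobec1, Calml4, Nlrp4a, Prx and Trim63) both were below, as for 22% of tested genes, and for 8 they overlapped. The rescued cells were also tested against TG2A_ESC, a wild-type group that played no part in choosing the genes (edgeR quasi-likelihood test, p adjusted over 17547 genes, n = 2 and 2). Of the 18 genes 4 were higher in the rescued cells and 1 was lower, where 10% of all tested genes were higher and 11.6% lower. The higher ones were Ubap1l, by 1.71 on the log2 scale (SE 0.48, adjusted p = 0.0178), Ttn, by 1.36 (SE 0.27, adjusted p = 0.00211), Gpt2, by 1.13 (SE 0.24, adjusted p = 0.00312), and Tex14, by 1.05 (SE 0.28, adjusted p = 0.0126). Prx fell by 0.88 (SE 0.19, adjusted p = 0.00336). The median change of the 18 was 0.19, against -0.01 over all tested genes. TG2A_ESC itself differed from E14_ESC, standing at a median of 75.6% of it over the 18 genes. It was at 54.5% for Ubap1l, 55.9% for Ttn, 66.4% for Gpt2, 66.2% for Tex14 and 128% for Prx. Calls against TG2A_ESC are thus not calls against E14_ESC, whose libraries the rescued Ttn libraries overlapped. These calls rested on few libraries: without rescued replicate 1 only Gpt2 and Ttn were called, without TG2A_ESC replicate 2 only Ttn was called higher, and Prx was not called without rescued replicate 1 or without TG2A_ESC replicate 1. Without TG2A_ESC replicate 1, 6 genes were called higher, with Calml4 and Nlrp4a added. The other 13 genes did not pass the test, which does not show that they had returned exactly to wild type. Nlrp4a was the nearest, at 1.68 (SE 0.59, adjusted p = 0.0574), and Sulf1 was called higher without the low-count filter, at 0.78 (adjusted p = 0.000164), or with only the compared groups fitted, at 0.77 (adjusted p = 0.0148). Among the Hedgehog genes, 2 of 14 tested were higher than in TG2A_ESC, Ptch1 by 1.94 (SE 0.22, adjusted p = 6.19e-05) and Cdon by 1.29 (SE 0.29, adjusted p = 0.00418).

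**Figure D3:**
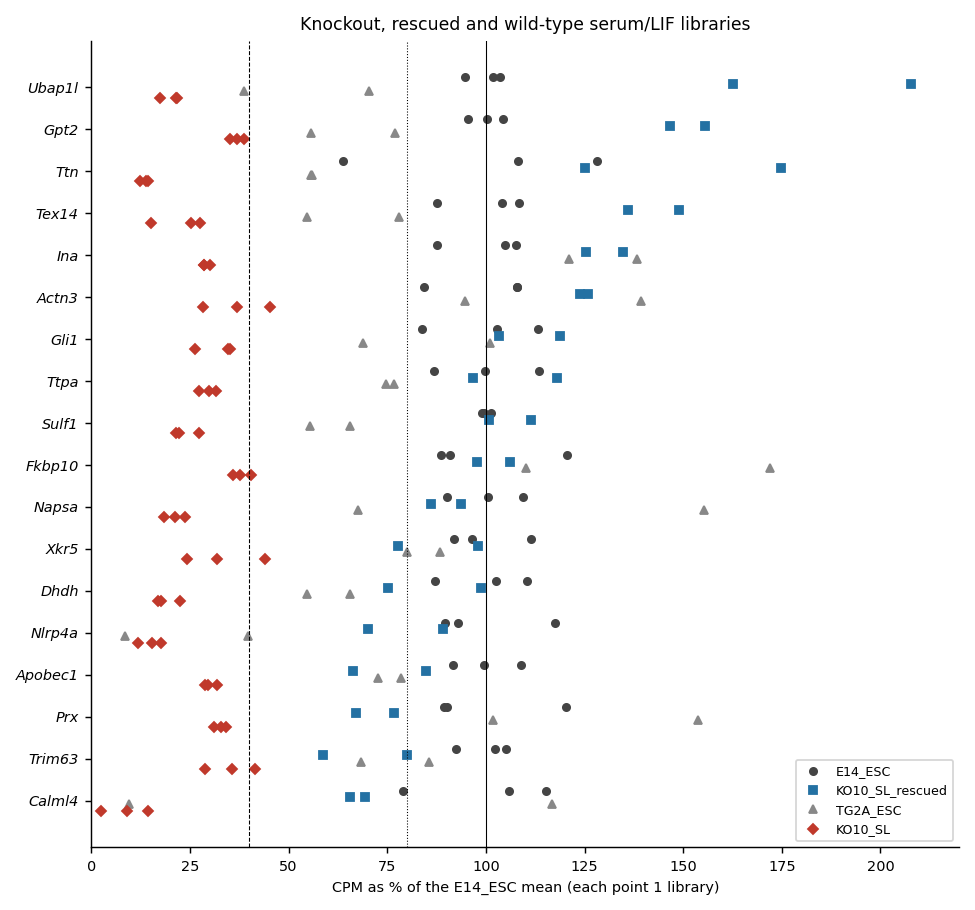
Level of each gene in the SL libraries as a percent of its E14_ESC mean; each point is a library, ordered by the rescued level. Red diamonds (knockout) lie at 2.50 to 45.2% and blue squares (rescued) at 58.6 to 208%, and within each gene the rescued points lie to the right of the knockout points.

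Wild-type libraries of the 2 media did not overlap for most of these genes, which was also so for most tested genes. The size of the difference ranged widely, and for Ttpa it was only 1.07-fold. Between TG2A_ESC and TG2A_S2iL, given here as values because TG2A_S2iL was used to choose the genes, 9 genes had both 2i libraries above both SL libraries, as for 36.1% of tested genes. These were Nlrp4a, 4.53-fold higher, Ubap1l, 2.99-fold, Gpt2, 2.66-fold, Ttn, 2.27-fold, Calml4, 2.12-fold, Apobec1, 1.81-fold, Trim63, 1.78-fold, Dhdh, 1.37-fold, and Ttpa, 1.07-fold. For 4 genes both 2i libraries were below, as for 28.0% of tested genes: Ina, 6-fold lower, Actn3, 4.83-fold, Fkbp10, 3.46-fold, and Gli1, 1.97-fold. The remaining 5, Napsa, Prx, Sulf1, Tex14 and Xkr5, overlapped between media. A low share of wild type in the knockout was therefore found in genes higher and in genes lower in TG2A_S2iL than in TG2A_ESC. Against E14_ESC, Gpt2, Ubap1l, Calml4, Apobec1 and Trim63 were also higher in every TG2A_S2iL library. Nlrp4a (means of 8.57 and 9.38 CPM), Ttn and Dhdh overlapped there, and Ttpa was lower. Ina, Actn3, Fkbp10 and Gli1 were lower in TG2A_S2iL against E14_ESC too. The share kept in the knockout was close in both media for some, such as Gli1 and Xkr5 (33.4% and 34.0%). It was lower under 2i for Napsa (21.2% and 4.59%) and Actn3 (36.9% and 19.6%), and lower in SL for Nlrp4a (14.9% and 39.1%) and Ttn (13.6% and 24.1%). Because the media used different wild-type sets, no test of these differences was made.

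The next question was what the genes do in PrE stem cells. Ezh2 RNA was 111 to 132 CPM in these, 188 and 192 in TG2A_ESC and 193 and 242 in C57_ESC. EZH2 activity was not tested. General pluripotency genes summed to 1767 to 2426 CPM in PrE stem cells, 6260 and 7334 in TG2A_ESC and 5217 and 7447 in C57_ESC. Naive pluripotency genes summed to 1207 to 2069, 3031 and 3898, and 1959 and 3340 CPM in the same order. Most of the 18 genes were nearly silent in PrE stem cells. None of the PrE or wild-type SL libraries used in these tests entered the rule. The rule's minimum level in ESCs does favour genes that are higher in ESCs than elsewhere, so the share of falls among the 10046 genes that met it is given too. In EPZ_iPrE1 against TG2A_ESC (n = 2 and 2), 16 of the 18 genes fell, 1 rose and 1 did not pass the test, where 32.2% of all tested genes fell, 38.5% of the 10046 fell and 27.9% of all rose. In EPZ_iPrE2, against the same TG2A_ESC libraries, again 16 fell, 1 rose and 1 did not pass, where 33.4% of all genes fell, 38.3% of the 10046 fell and 28.8% of all rose. In C57_PrESC against C57_ESC (n = 2 and 2), 14 fell, 1 rose and 3 did not pass, where 33.4% of all genes fell, 36.1% of the 10046 fell and 27.3% of all rose. The median log2 change of the 18, with genes at 0 counts placed at their lower bound, was -5.55, -5.85 and -5.13 in the 3 comparisons, against -0.07, -0.11 and -0.09 over all tested genes.

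Gli1 fell from 69.1 and 101 CPM in TG2A_ESC to 0.515 and 0.144 CPM in EPZ_iPrE1 and 0.187 and 0.0616 CPM in EPZ_iPrE2, which is a log2 change of -7.96 (SE 0.37, adjusted p = 3.36e-11) and -9.29 (SE 0.41, adjusted p = 1.86e-11). In C57 cells it went from 44.2 and 46.2 CPM to 0 and 0.113 CPM. Gli2 and Kif7, which act with it, fell in all 3 comparisons, with Kif7 at -4.22, -4.16 and -4.03. Ptch1 was kept at 67.1 to 78.1 CPM as group means in the PrE stem cells and did not pass the test in either EPZ comparison, while in C57 it fell by 1.30 on the log2 scale. The ligand Ihh rose by 3.22 and 3.89 in the EPZ comparisons and by 8.11 in C57. Of 14 tested Hedgehog genes, 6 fell and 1 rose in EPZ_iPrE1, 7 fell and 1 rose in EPZ_iPrE2, and 9 fell and 2 rose in C57_PrESC, Gli1 included. The shares over all tested genes were 32.2%, 33.4% and 33.4% for falls and 27.9%, 28.8% and 27.3% for rises, so the Hedgehog counts are given as a description.

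Actn3 was 60.9 and 41.4 CPM in TG2A_ESC and 0.249 to 0.431 CPM in the 4 EPZ libraries, with log2 changes of -7.06 (SE 0.31, adjusted p = 1.80e-11) and -7.41 (SE 0.31, adjusted p = 1.20e-11), and the change in C57 was -7.58 (SE 0.33, adjusted p = 1.59e-11). Ttn fell by 5.56, 5.86 and 5.67 on the log2 scale in the 3 comparisons, from 24.9 and 25.0 CPM in TG2A_ESC to 0.287 to 0.736 CPM in the EPZ libraries. Trim63 had 0 counts in all 6 PrE libraries, which makes it at least 48.6-fold, 57.1-fold and 39.3-fold lower, by a floor of 3 counts over the group. Napsa also had 0 counts in all 6, and was at least 78.5-fold, 92.1-fold and 24.5-fold lower. Ina had 0 counts in both C57_PrESC libraries, at least 666-fold below the 35.6 and 82.2 CPM of C57_ESC, and 3 counts and 1 count in the 2 EPZ groups. Calml4 had 0 counts in the EPZ groups, at least 46.8-fold and 54.9-fold lower, although its TG2A_ESC libraries were uneven, at 9.59 and 0.791 CPM. Nlrp4a had 0 counts in all PrE libraries, at least 18.8-fold and 22-fold below TG2A_ESC, and had only 11 counts in C57_ESC. Xkr5 had 0 counts in EPZ_iPrE2, at least 101-fold lower, and 4 counts in each of the other PrE groups. Ttpa and Ubap1l had 1 to 3 counts in each of the PrE groups. Tex14 fell by 5.11 in EPZ_iPrE1 and 5.77 in C57 on the log2 scale and had 2 counts in EPZ_iPrE2. Prx fell in each comparison and was 3.02 to 6.40 CPM in the PrE libraries. Apobec1 also fell in each, by 2.30 in EPZ_iPrE1, 4.68 in EPZ_iPrE2 and 2.94 in C57 on the log2 scale. Its C57 value rested on 1 library, since C57_PrESC had 1 count and 26 counts, and without replicate 2, which holds the 26 and has the high fibroblast marker sum given below, the change was -6.42 (adjusted p = 8.04e-07).

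Gpt2 was the gene of the 18 that rose in both EPZ comparisons. It was 63.4 and 45.9 CPM in TG2A_ESC, 67.1 and 101 CPM in EPZ_iPrE1 and 107 and 75.3 CPM in EPZ_iPrE2, which gave 0.68 (SE 0.24, adjusted p = 0.0217) and 0.82 (SE 0.24, adjusted p = 0.00687). Neither set of PrE libraries overlapped TG2A_ESC. In C57 cells it did not pass the test, at 120 and 110 CPM in ESCs and 118 and 66.1 CPM in PrE stem cells, but without C57_PrESC replicate 1 it was called lower there, at -0.75 (adjusted p = 0.0112). The rises were small and were lost when a single library was left out, that in EPZ_iPrE1 without TG2A_ESC replicate 2 or EPZ_iPrE1 replicate 2 and that in EPZ_iPrE2 without TG2A_ESC replicate 2 or EPZ_iPrE2 replicate 1. Sulf1 did not pass in any of the 3 comparisons. It was 42.1 and 35.6 CPM in TG2A_ESC and 39.4 to 46.1 CPM in the 4 EPZ libraries, and 9.43 and 55.2 CPM in C57_ESC against 17.7 and 24.8 CPM in C57_PrESC. Its C57 value turned on C57_ESC, at -1.29 without replicate 1 and 1.27 without replicate 2.

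Dhdh differed by line. It fell in both EPZ comparisons, from 7.16 and 5.98 CPM to 0.442 and 0.251 CPM in EPZ_iPrE1, a log2 change of -4.26 (SE 0.37, adjusted p = 4.61e-08), and to 0.560 and 1.05 CPM in EPZ_iPrE2, a change of -2.95 (SE 0.31, adjusted p = 4.41e-07). In C57 it rose from 30.2 and 23.5 CPM to 41.5 and 59.1 CPM, by 0.97 (SE 0.24, adjusted p = 0.00225). Fkbp10 was 34.9 and 22.3 CPM in TG2A_ESC and 0.646 to 2.87 CPM in the EPZ libraries, with log2 changes of -3.98 and -4.08, but 1.59 and 33.7 CPM in the 2 C57_PrESC libraries. The library with 33.7 CPM also had a fibroblast marker sum of 2326 CPM, against 30.3 CPM in the other, and without it Fkbp10 fell in C57 by 3.82 (adjusted p = 5.11e-05). Over the EPZ libraries the same marker sum was 27.8 to 286 CPM and over C57_ESC 45.4 and 494 CPM. Its part in the C57 values was not tested. Calls for Calml4 and Nlrp4a in C57 were lost when single libraries were left out, Calml4 without C57_PrESC replicate 1 or C57_ESC replicate 2, and Nlrp4a without either C57_PrESC library or C57_ESC replicate 2. The 16 falls in each EPZ comparison kept their call in every fit that left out 1 library.

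**Figure D4:**
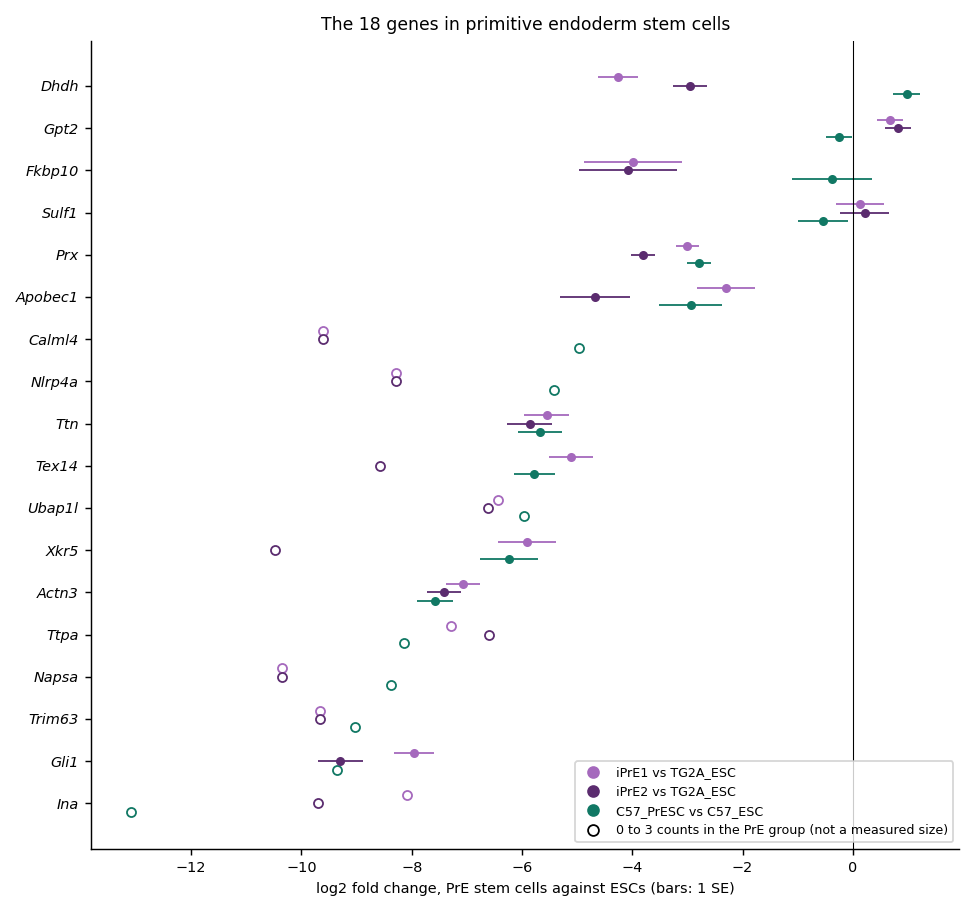
Log2 fold change of each gene in PrE stem cells against ESCs, with bars of 1 SE, from the fit to all libraries. The EPZ sets are set against TG2A_ESC and C57_PrESC against C57_ESC. Open circles mark genes with 0 to 3 counts in the PrE group, whose position is not a measured size; Gpt2, Sulf1, Dhdh and Fkbp10 lie nearest to or above 0 in at least 1 comparison.

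The genes were scattered over the genome. In GENCODE M21 (GRCm38) they lie on 10 chromosomes, with 4 on chromosome 7 (Dhdh, Napsa, Nlrp4a and Prx) and at most 2 on any other. To see whether their surroundings fell with them, the nearest gene with at least 5 CPM in both wild-type groups was taken on each side, 36 genes in all at a median distance of 22.8 kb. In SL these neighbours stood at 29.2 to 235% of wild type with a median of 96.0%, and under 2i at 55.2 to 260% with a median of 102%. At or under 40% were 2 in SL and 0 under 2i, where 322 and 66 of all 10046 genes were. The 2 were Klhl11, 37.8 kb from Fkbp10 (39.7%), and Gm21811, 1186 kb from Xkr5 (29.2%). Rad51c lies 0.111 kb from Tex14 and stood at 70.6% in SL, while Tex14 stood at 22.7%. Ctsf and Zdhhc24 lie 0.298 and 0.759 kb from Actn3 and stood at 167% and 113%.

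**Figure D5:**
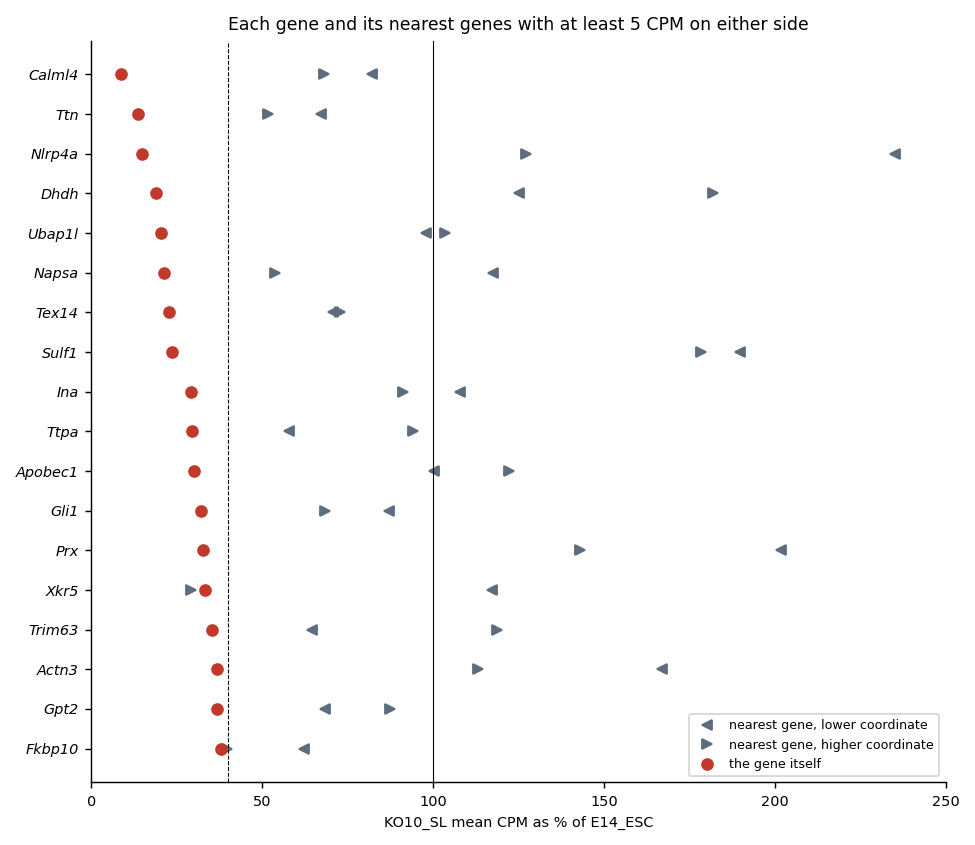
KO10_SL mean as a percent of E14_ESC for each of the 18 genes (red) and for the nearest gene with at least 5 CPM on either side (arrowheads). The 18 genes lie left of the dashed line at 40% by choice, and of the 36 neighbours 2 do. These are the neighbours at higher coordinates of Xkr5 (1186 kb away) and of Fkbp10 (37.8 kb away).

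Some members share sequence with other genes, and the counting rule for such reads is not given in the sources used here. Exons of Dhdh overlap Tulp2, those of Fkbp10 overlap Nt5c3b, those of Gli1 overlap Arhgap9 and those of Ina overlap Nt5c2, in each case on the opposite strand. Nt5c3b and Arhgap9 were higher in the knockout than in wild type, at 31.4 against 20.6 CPM and 14.4 against 10.3 CPM, so these partners moved opposite to the members. Tulp2 went from 3.96 to 2.53 CPM and Nt5c2 from 46.5 to 45.7 CPM. Dhdh also shares exons with Gm45808 on its own strand, at 0.230 CPM in E14_ESC, and Napsa, Prx, Ttn and Xkr5 overlap short or antisense RNAs at 1.07 CPM or less. Values of the overlapping members are uncertain to the extent that reads were exchanged.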

How the data were processed

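RNA-seq values were deposited by the authors as 1 table of estimated counts per gene symbol, with no scaling. Build mm10 and the tools STAR 2.7.6a, DESeq2 and Trim Galore come from the submitters' processing notes; for the counting step, annotation and strandedness the entry is "not given in the sources used here". Per the labels the molecule is polyA RNA but the kit depletes rRNA, so RNA selection is uncertain. The plan assumed raw counts; since some values are fractions, all were rounded before modelling. CPM uses plain column totals. Genes kept by filterByExpr (17547) were fitted with edgeR 4.0.16 in R 4.3.3 (TMM, quasi-likelihood, 1 coefficient per group, all 22 libraries), with Benjamini-Hochberg adjustment within a comparison and calls at an adjusted p below 0.05. SE is the absolute log2 change divided by the root of F, unreliable at few counts. The script was tested on simulated data. The rule for named genes was to name all members where there are at most 30; 2 of the 20 members, and some genes on the lists, are not reported here, and counts of members are over the other 18. The members and lists were chosen with earlier results of these data known. Alternatives were RLE scaling, DESeq2 1.42.0, no filter, only the compared groups, a replicate block, each library left out, and other limits for the rule. Human cells and chromatin profiles were not analysed here.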

Additional observations from a re-analysis of the deposited data

Results flagged for a closer look

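For 3 of the 18 genes the change from ESCs to PrE stem cells differed between the EPZ-derived cells (mean of both sets, against TG2A_ESC) and the C57 cells, by an edgeR test of the difference that was added after the values were seen. The difference, EPZ change less C57 change on the log2 scale, was -4.58 for Dhdh (SE 0.37, adjusted p = 2.02e-07), -3.65 for Fkbp10 (SE 1.02, adjusted p = 0.0102) and 0.99 for Gpt2 (SE 0.31, adjusted p = 0.0216). Dhdh fell in the EPZ cells and rose in C57. Among all 17547 tested genes 35.1% differed in this way. Origin (EPZ conversion or C57) and genetic background cannot be told apart in this design. Without C57_PrESC replicate 2, the library with the high fibroblast marker sum, only Dhdh and Apobec1 differed: Fkbp10 was at -0.22 (adjusted p = 0.914) and Gpt2 at 0.61 (adjusted p = 0.0982). The difference for Gpt2 was also lost without C57_ESC replicate 1, TG2A_ESC replicate 2, EPZ_iPrE1 replicate 2 or EPZ_iPrE2 replicate 1, at 0.80 to 0.93. No group has more than 3 libraries, so single libraries could not be screened as outliers.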

How the results depend on the processing

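Moving the rule changed the set: a limit of 30% gave 9 genes, 50% gave 51, a minimum of 1 CPM gave 54 and of 10 CPM gave 8, leaving out 1 library gave 19 to 21, and TMM-scaled CPM gave 29, including all 20. With TG2A_ESC as the SL control 17 genes met it, 14 of them shared. Of the described genes Gpt2, Nlrp4a, Trim63 and Ubap1l did not. KO10_SL stood at 55.6%, 61.8% and 45.8% of TG2A_ESC for the first 3. Ubap1l and Nlrp4a were under the minimum level in TG2A_ESC, at 3.83 and 2.07 CPM. Leaving out 1 library at a time, the rescued cells had 1 to 6 genes higher and 0 to 1 lower than TG2A_ESC, 0 to 1 rose in each EPZ comparison, 1 to 2 rose in C57, and 2 to 4 differed between EPZ and C57. Fitting only the compared groups left 0 rises in EPZ_iPrE1, with Gpt2 at 0.67 (adjusted p = 0.0528), and took the calls of Apobec1 and Napsa in C57 away. Against TG2A_ESC, 2 genes were rescued to 40 to 80%. Sulf1 in C57 ran from -1.29 without C57_ESC replicate 1 to 1.27 without replicate 2, and its EPZ less C57 difference from 1.49 to -1.10; that of Apobec1 ran from -1.43 without C57_PrESC replicate 1 to 2.91 without replicate 2. The cause was not tested. Deviations of same-numbered libraries were nearly uncorrelated in the rescue and EPZ comparisons (0.03, 0.03 and -0.01). In C57 the correlation was 0.27, and replicate 2 of both C57 groups had the higher fibroblast marker sum. Whether the C57 libraries were paired was not tested. With a replicate block the rescue comparison gave 5 genes higher, adding Nlrp4a at 1.95 (adjusted p = 0.0244), and no other member's call changed. Without the low-count filter or by DESeq2 Nlrp4a was also called there, and without that filter Sulf1 was called in the rescue comparison and in C57, at -0.54 (adjusted p = 0.00775). Leaving out 1 PrE library moved called falls by over 1.5 times for Gli1 (-7.34 to -9.11 in EPZ_iPrE1, -8.70 to -10.26 in EPZ_iPrE2), Fkbp10 (-3.29 to -5.40 and -3.45 to -5.27), Ttn (-6.36), Dhdh (-4.84) and Apobec1 (-3.18) in EPZ_iPrE1, and Xkr5 in C57 (-5.36 to -10.51), with all calls kept. Depth limits the low genes: Nlrp4a had 81 counts over both TG2A_ESC libraries.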
